A study of Mus musculus with 24 samples.

Results

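The cytosolic ribosomal protein genes are the genes for the proteins of the 80S ribosome in the cytoplasm, chosen here by mouse gene symbol. A gene was a member when its symbol was Rpl or Rps with a number and, where present, the ending a, x or a1, or was Rplp0, Rplp1, Rplp2 or Rpsa, and when its mean raw count over the wells was at least 10. Of 77 symbols that fit, 76 passed the count minimum, out of 55359 genes in the table. They comprised 42 genes of the large subunit, 31 of the small subunit and 3 of the P stalk. Rpl24 was just outside the minimum with a mean of 5.83 counts, and Rps10 (25.9 counts), Rpl15 (66.2) and Rpl23a (96.5) were just inside it. The rule itself used no measured difference between groups, but the family was chosen with earlier results of these data known. All 76 members passed the count filter of each test.

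The cells were oligodendrocytes, the myelin-forming cells of the brain, taken by magnetic sorting for the surface antigen O4 from the cortex of C57BL/6J pups on postnatal days 5 to 7. They were differentiated in culture for 3 days, chiefly with the thyroid hormone triiodothyronine, followed by 3 days in medium with or without ethanol. Experiment 1 compared 6 wells at 30 mM ethanol with 6 control wells, and experiment 2 compared 6 wells at 10 mM ethanol with 6 control wells of its own. RNA was measured by sequencing tags from the 3′ ends of transcripts. All groups shared the strain, and they differed in ethanol, incubator and experiment. Control plates stood in an incubator apart from the ethanol plates, and effects of ethanol and of incubator therefore cannot be told apart. Each dose belonged to 1 experiment and 1 batch, and the effect of dose cannot be told apart from that of experiment. The labels call the wells biological replicates without naming separate litters or cultures, so p-values measure the spread between these wells, which may be technical in part.

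A ribosome is built from ribosomal RNA and a set of proteins, most of them present in about equal numbers. Its production takes up much of the protein synthesis of a growing cell. Messenger RNAs for ribosomal proteins begin with a C followed by a run of pyrimidines, the 5′ terminal oligopyrimidine or TOP motif. Through this motif the kinase complex mTORC1 and the cap-binding protein LARP1 set how actively these messages are translated and how stable they are. The TOP motif is shared with the messages of several elongation factors. In oligodendrocytes mTORC1 signalling is known for its part in differentiation and myelination.

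The starts of members are shown because they carry the feature that the family is known for. Of the members, 56 matched an entry in the RefSeq promoter table for mouse build GRCm38.p6. Of these, 13 (23.2%) had a C followed by at least 4 further pyrimidines exactly at the annotated start, against 3.01% of the 27025 genes in that table. Below are the 9 of them that are described in the results, each from 10 bases before the start to 20 bases from it, with the pyrimidine run that begins at the annotated start in capitals.
Rpl14: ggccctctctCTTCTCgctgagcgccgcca
Rpl15: agaaagccttCTTCCTTTCCTCTggcggca
Rpl28: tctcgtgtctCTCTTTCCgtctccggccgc
Rpl38: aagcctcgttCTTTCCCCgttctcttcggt
Rplp2: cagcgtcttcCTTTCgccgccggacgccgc
Rps10: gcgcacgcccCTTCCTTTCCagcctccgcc
Rps18: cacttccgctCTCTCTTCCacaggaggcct
Rps27: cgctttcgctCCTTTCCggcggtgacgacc
Rps6: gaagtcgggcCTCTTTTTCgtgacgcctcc

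In GRCm38.p6 these windows lie at chr9:120571507-120571536 on the plus strand for Rpl14, chr14:18270967-18270996 on the minus strand for Rpl15, chr7:4792955-4792984 on the plus strand for Rpl28 and chr11:114668570-114668599 on the plus strand for Rpl38. Those of Rplp2 (chr7:141447641-141447670) and Rps10 (chr17:27635225-27635254) are on the plus and the minus strand. Rps18 (chr17:33955646-33955675), Rps27 (chr3:90213629-90213658) and Rps6 (chr4:86857348-86857377) are on the minus strand. Each window spans the end of the proximal promoter and the beginning of exon 1. In 31 of the 56 members (55.4%) a C with at least 7 further pyrimidines lay somewhere within 30 bases of the start, against 20.6% of genes. The motif CCGGAAG, the core letters bound by ETS factors, occurred on either strand of the 300-base entry in 24 of 56 members (42.9%) and in 9.93% of genes. CTTTCC occurred on either strand in 28 of 56 and in 29.3% of genes, and it can overlap a pyrimidine run. A match of letters is a description and does not show that a factor binds there.

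Total counts per well ranged from 1184609 to 1817028. The myelin gene Mbp was abundant, at means of 2602 and 3530 CPM in the controls and the 30 mM wells of experiment 1, and of 2494 and 2629 CPM in the controls and the 10 mM wells of experiment 2. CPM are counts scaled to a common library size. Gfap, a marker of astrocytes and thus of another cell type, was also present, at means of 1606 CPM in the controls of experiment 1 and 1848 CPM in those of experiment 2. The summed level of 14 microglia markers was 260 to 431 CPM in the experiment 1 controls and 3095 to 3699 CPM in those of experiment 2. In such bulk samples, fewer cells of a type and less RNA per cell cannot be told apart. No pair among the 60 pairs of wells within groups held identical values.

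At 30 mM ethanol, the ribosomal protein genes were lower as a family. They took 3.96%, 4.17% and 4.27% of all counts (lowest, median and highest of 6 wells), against 4.64%, 4.75% and 5.02% in the 6 control wells. The means were 4.15% ± 0.111 (SD, n = 6) and 4.79% ± 0.151 (SD, n = 6), and the highest ethanol well lay below the lowest control well. The exact 95% binomial interval of a well's share was 0.0601 to 0.0785 percentage points wide, which is narrower than the gap between the groups and covers counting error only. The large subunit genes took 2.02% ± 0.0619 against 2.35% ± 0.0726 (SD, n = 6 each), and the small subunit genes took 1.83% ± 0.0456 against 2.11% ± 0.0693.

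**Figure D1:**
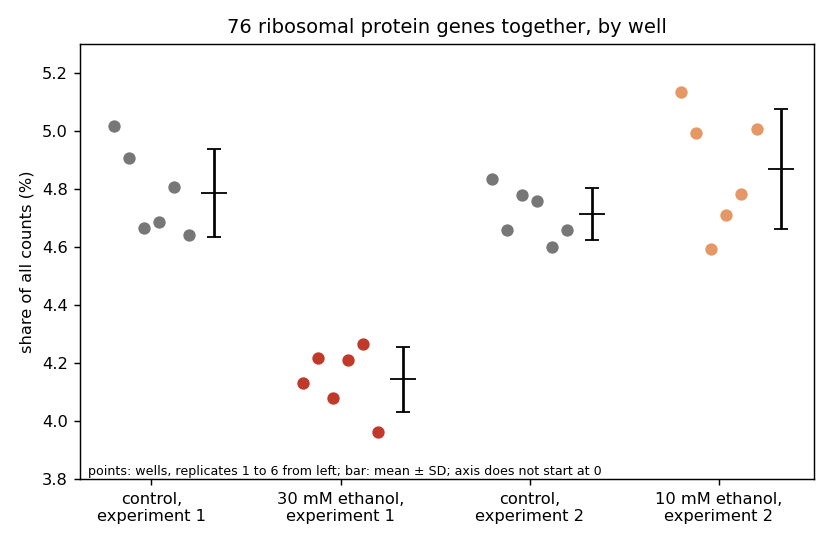
Share of all counts taken by the 76 ribosomal protein genes (y axis, percent, not starting at 0) in each of the 24 wells, by group; points are wells and bars are the mean ± SD of 6 wells. The 30 mM wells lie between 3.96% and 4.27%, below their controls at 4.64% to 5.02%, while the 10 mM wells at 4.59% to 5.14% overlap theirs at 4.60% to 4.83%.

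In edgeR's quasi-likelihood test with Benjamini-Hochberg adjustment over all 13235 genes, 47 of the 76 members fell at 30 mM and 0 rose. Over all genes tested, 6.65% were called lower and 3.02% higher, and among the 1951 other genes at 100 CPM or more 17.8% were called lower and 7.18% higher. The fold change was negative for 74 members, for 6086 of all 13235 genes and for 1199 of the 1951 other genes at 100 CPM or more. The members' median was -0.20 on the log2 scale, a change of -13.1%, with a range from -0.40 for Rpl23a to 0.04 for Rps10. Beside it, the median was 0.02 over all genes and -0.05 over other genes at 100 CPM or more. In 23 members all 6 ethanol wells lay below all 6 control wells, as did those of 3.09% of all genes and 8.51% of other genes at 100 CPM or more, while 0 members separated upward (1.08% and 3.28% of genes). Each subunit took part, with 26 of 42 large subunit genes, 19 of 31 small subunit genes and 2 of 3 P stalk genes called lower, at medians of -0.22, -0.19 and -0.18. The count was 30 without replicate 3 of the 30 mM wells and also 30 without replicate 6, and the median stayed between -0.22 and -0.18 with any of the 12 wells left out.

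**Figure D2:**
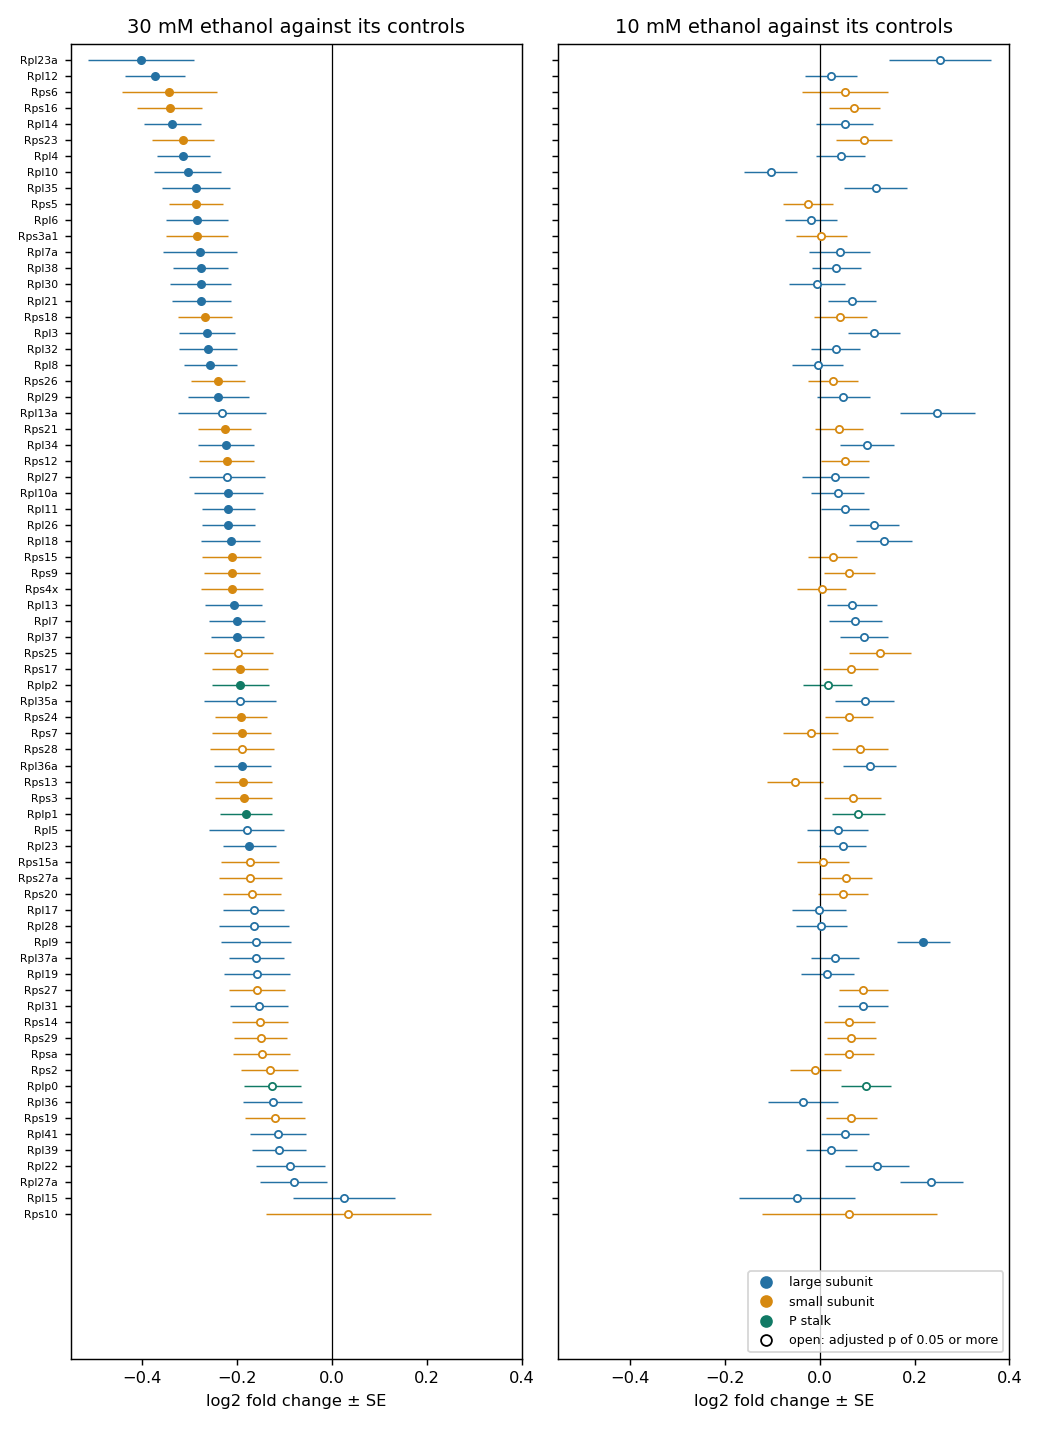
Log2 fold change ± SE of 73 of the 76 members (rows, ordered by the 30 mM value) at 30 mM (left) and 10 mM (right) against the controls of the same experiment, coloured by subunit, with filled points for adjusted p under 0.05. At 30 mM 71 of the rows lie below 0 and 44 are filled, while at 10 mM 62 lie above 0 and 1 is filled.

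The member with the smallest p was Rpl12, which sits with Rplp0 at the base of the stalk. It measured 452, 501 and 568 CPM at 30 mM (lowest, median and highest well) and 603, 630 and 718 CPM in the controls, with no overlap, and fell by 0.37 on the log2 scale (SE 0.064, adjusted p = 5.5e-05). Rpl4, whose protein lines the tunnel through which the new chain leaves, measured 820, 845 and 939 CPM against 997, 1055 and 1168 CPM and fell by 0.31 (SE 0.057, adjusted p = 0.00013). Rpl3, next to the centre where peptide bonds form, measured 475, 548 and 596 CPM against 613, 658 and 677 CPM and fell by 0.26 (SE 0.060, adjusted p = 0.0024). For these large subunit genes every ethanol well lay below every control well. Rpl14 (log2 fold change -0.34, SE 0.060, adjusted p = 0.00011) also separated fully. Rpl30 (-0.28, adjusted p = 0.0031), Rpl7 (-0.20, adjusted p = 0.023) and Rpl37 (-0.20, adjusted p = 0.016) fell without overlap as well.

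Rpl10, which joins the large subunit late in its maturation, measured 240, 282 and 302 CPM against 281, 345 and 369 CPM. Its groups overlapped, and it fell by 0.30 (SE 0.070, adjusted p = 0.0030). Rpl38, mutated in the tail-short mouse, measured 733, 839 and 880 CPM against 888, 1002 and 1076 CPM and fell without overlap by 0.28 (SE 0.058, adjusted p = 0.0010). Rpl23a had the most negative value, at 40.3, 61.2 and 81.0 CPM against 67.3, 86.0 and 94.3 CPM, but as a low member it had a wide error (log2 fold change -0.40, SE 0.111, adjusted p = 0.015) and overlapping wells. Its call ended without replicate 3 of the 30 mM wells, at an adjusted p of 0.077.

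The small subunit reads the message. Rps16, whose tail reaches the tRNA in the P site, measured 364, 440 and 499 CPM against 467, 548 and 617 CPM and fell by 0.34 (SE 0.069, adjusted p = 0.00056). Rps23, at the decoding centre, measured 355, 399 and 465 CPM against 438, 504 and 553 CPM and fell by 0.31 (SE 0.065, adjusted p = 0.00082). The wells of Rps16 and Rps23 overlapped.

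Rps6, the substrate of the S6 kinases and a common readout of mTORC1 activity at the protein level, measured 51.6, 72.0 and 89.9 CPM against 79.5, 89.6 and 110 CPM. The groups overlapped, and it fell by 0.34 (SE 0.10, adjusted p = 0.021), a call that ended without replicate 6 of the 30 mM wells (adjusted p = 0.094) and without control replicate 5 (adjusted p = 0.082). Rps3, at the entry of the mRNA channel, fell by 0.19 (adjusted p = 0.041), and Rps4x, encoded on the X chromosome, fell by 0.21 (adjusted p = 0.031). Both overlapped their controls, and leaving out replicate 6 of the 30 mM wells gave adjusted p values of 0.15 and 0.11. Rps13 fell without overlap by 0.19 (adjusted p = 0.038), with an adjusted p of 0.13 without replicate 3. The calls of Rps3, Rps4x and Rps13 each ended without any 1 of at least 6 of the 12 wells.

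The P stalk recruits the elongation factors. Rplp1 measured 1472, 1573 and 1651 CPM at 30 mM and 1671, 1787 and 1885 CPM in the controls, a fall of 0.18 without overlap (SE 0.055, adjusted p = 0.027). Rplp2 measured 654, 744 and 783 CPM against 723, 850 and 912 CPM, a fall of 0.19 with overlap (SE 0.060, adjusted p = 0.032). Rplp0, the stalk's anchor, measured 648, 698 and 792 CPM against 701, 785 and 844 CPM and did not pass (log2 fold change -0.13, SE 0.059, adjusted p = 0.19). The call of Rplp1 ended without any 1 of 8 of the 12 wells (adjusted p up to 0.10, without replicate 3 of the 30 mM wells) and that of Rplp2 without any 1 of 6 (up to 0.12, without replicate 6).

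Several members are known for roles beside the ribosome. Rpl5 and Rpl11 form a particle with 5S rRNA that can bind the p53 regulator MDM2. Rpl11 measured 687, 748 and 804 CPM against 823, 878 and 911 CPM, with no overlap, and fell by 0.22 (SE 0.056, adjusted p = 0.0079). Rpl5 measured 107, 123 and 142 CPM against 125, 139 and 151 CPM, overlapped and did not pass (-0.18, SE 0.079, adjusted p = 0.15). Rpsa, also called the laminin receptor precursor, measured 772, 816 and 856 CPM against 832, 874 and 1041 CPM and did not pass (-0.15, SE 0.059, adjusted p = 0.11). Rps27a, whose protein is made as a fusion with ubiquitin, and Rps19, the gene most often mutated in Diamond-Blackfan anaemia, were at -0.17 (adjusted p = 0.094) and -0.12 (adjusted p = 0.25).

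Some members serve as reference genes in RT-qPCR. Rps18 measured 434, 453 and 476 CPM at 30 mM and 529, 544 and 576 CPM in the controls, and fell without overlap by 0.27 (SE 0.057, adjusted p = 0.0012). Rpl32 measured 673, 774 and 827 CPM against 814, 939 and 990 CPM, overlapped and fell by 0.26 (SE 0.061, adjusted p = 0.0032). Rpl13a, at 72.4, 97.9 and 121 CPM against 104, 112 and 134 CPM, overlapped and did not pass (-0.23, SE 0.092, adjusted p = 0.11). Its direction turned with the well's mitochondrial share as a covariate, at 0.064. The calls of Rps18 and Rpl32 held with each of the 12 wells left out in turn.

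In all, 29 members were not called at 30 mM, and 27 of them also had a negative value. Rpl39 and Rpl41, which encode very short proteins, were at -0.11 (SE 0.057) and -0.11 (SE 0.059). Rpl22, which has a close paralog in Rpl22l1, was at -0.09 (SE 0.073), and Rpl27a was at -0.08 (SE 0.070). The positive values belonged to the members with the fewest counts, Rpl15 (0.03, SE 0.107) and Rps10 (0.04, SE 0.173). The sign of both changed with single wells left out, so neither direction is settled by these counts. Of the 23 members named by rule and called lower at 30 mM, 12 kept their call with each of the 12 wells left out in turn. The calls of Rpl7, Rpl10a, Rpl18, Rpl23a, Rpl37, Rplp1, Rplp2, Rps3, Rps4x, Rps6 and Rps13 ended without at least 1 of the wells, with highest adjusted p values from 0.066 for Rpl37 to 0.16 for Rpl10a.

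The members moved nearly in step. Their fold changes at 30 mM had an SD of 0.079, above the median SE of 0.061, which also holds movement common to all members. With the libraries scaled to the members' own total, the SD was 0.079 and the median SE 0.055. On this scale 1 member, Rpl12, was called lower (-0.16, SE 0.057, adjusted p = 0.032) and 0 were called higher by edgeR, with 6 at an unadjusted p under 0.05. Over all 13235 genes 1.95% were then called lower and 23.6% higher by edgeR, and 5315 had an unadjusted p under 0.05. The call of Rpl12 ended without any of 6 wells, namely replicates 2, 3 and 6 of the 30 mM wells and 1, 2 and 6 of the controls, with adjusted p values up to 0.085. limma voom called 2 members lower on this scale. The order of the members by level was kept, with a Spearman correlation of 0.996 across the 76 genes between the 30 mM group and its controls, given as a description because both groups share the genes.

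**Figure D3:**
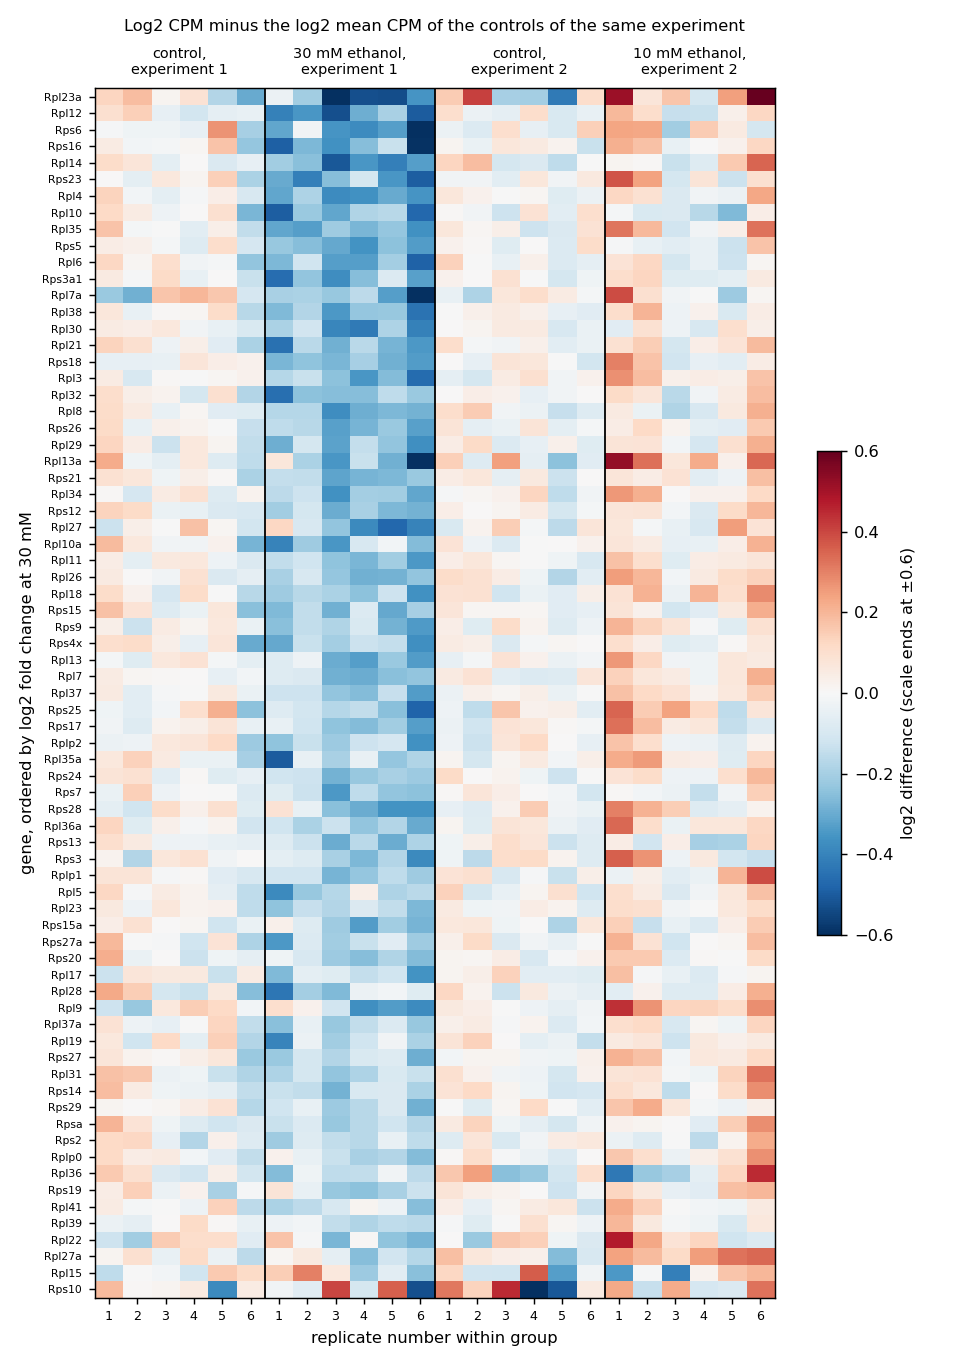
Log2 CPM of 73 of the 76 members (rows, ordered by the 30 mM fold change) in each well (columns), minus the log2 mean CPM of the controls of the same experiment; blue is lower and red is higher, and the scale ends at 0.6 in either direction. The 30 mM columns are blue over most rows, and at 10 mM replicates 1, 2 and 6 are redder than replicates 3, 4 and 5.

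The wells did not contribute equally. In the 30 mM wells 54, 34, 62, 51, 47 and 69 members lay below all 6 controls (replicates 1 to 6). Replicate 6 thus had the most and replicate 2 the fewest. A control well had on average 12.7 members, from 0 to 47, below the 5 other controls. The same counts were not made over other genes, so they do not set the members apart from the rest of a well's genes. Among the controls, replicate 6 stood lower than its group, with 47 members below the 5 other control wells, and leaving it out raised the number of members called lower from 47 to 53.

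Other genes of the translation apparatus were read from lists. For these and the lists that follow at 30 mM, 6.65% of all genes tested were called lower and 3.02% higher. Among genes at 100 CPM or more that were no members, the shares were 17.8% and 7.18%. Of the ribosome's proteins outside the symbol rule, Rack1, a scaffold on the small subunit, measured 695 to 855 CPM against 950 to 1016 CPM and fell by 0.34 (adjusted p = 4.3e-05), and Fau, the fusion gene that encodes Rps30, fell by 0.26 (adjusted p = 0.0033). These were 2 of 7 such genes tested, and 0 rose. Of 22 TOP messages and translation genes, elongation factors included, 10 fell and 0 rose (median -0.20). They included Naca (-0.32), of the nascent chain complex, and Snhg8 (-0.63), a host gene of small nucleolar RNA. Of 35 ribosome biogenesis genes, 9 fell and 0 rose (median -0.20), among them Nop58 (-0.46), Ncl (-0.29) and Npm1 (-0.32), which act in the nucleolus. A list of 28 other translation factors was mostly for initiation, with a few for elongation, termination and recycling. Of these 9 fell and 0 rose (median -0.17), led by the helicase Eif4a1 (-0.37), Eif5a (-0.36) and the Eif3 subunit Eif3g (-0.37). The lists overlap, so their counts are not of separate genes: Rack1 and Fau stand among both the ribosome's proteins and the TOP messages, and Npm1 among both the TOP messages and the biogenesis genes.

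Genes that control TOP messages were mixed. Of 21 tested, 2 rose and 2 fell, with a median of -0.00. Eif4ebp1, a translation repressor inhibited by mTORC1, measured 56.5 to 61.7 CPM against 82.0 to 97.0 CPM and fell by 0.54 (adjusted p = 3.4e-05). Larp1 fell by 0.30 (adjusted p = 0.0077). Ddit4 and Sesn2, stress-induced inhibitors of mTORC1, rose by 0.41 (adjusted p = 0.031) and 0.35 (adjusted p = 0.037). RNA levels do not show the activity of the kinase.

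Other gene lists also held changes at 30 mM, some lower and some higher. Of 23 cell cycle genes 18 fell, led by Mcm6 (-0.73), Rrm2 (-0.64) and Plk1 (-0.70), and their summed level was 1337 to 1653 CPM against 1864 to 2189 CPM. Of 12 fibroblast and mural markers tested 8 fell, including Myl9, Cnn1 and Acta2, with a summed level over the list of 533 to 655 CPM against 1164 to 1579 CPM. Of 13 mature oligodendrocyte markers 8 rose, with sums of 10068 to 17170 CPM against 7863 to 9606 CPM. The highest of these sums was that of 30 mM replicate 1 alone, and the medians were 10405 and 8428 CPM. Of 12 astrocyte markers 6 rose, with sums of 6142 to 7579 CPM against 4481 to 5559 CPM. Mal (0.78), Mobp (0.63) and Mag (0.59) led the first list, and Slc1a2 (0.62), Aqp4 (0.56) and Ntsr2 (1.03) the second. Microglia markers summed to 275 to 425 CPM against 260 to 431 CPM, and of 9 tested 1 rose, Cx3cr1 (1.07, SE 0.29, adjusted p = 0.012). Of 7 neuron markers tested 1 fell, Stmn2 (-0.71, adjusted p = 1.3e-05), and of 10 oligodendrocyte precursor markers 1 fell, Cacng4 (-0.35, adjusted p = 0.0091). The part of these differences in the result for the ribosomal protein genes was not tested.

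Genes of the mitochondrial genome took 3.59% to 4.79% of counts at 30 mM and 2.94% to 3.82% in the controls, and 7 of 8 tested rose, led by mt-Nd4 (0.37), mt-Nd5 (0.38) and mt-Nd3 (0.38). Outside mitochondrial genes the members' share was 4.16% to 4.45% against 4.80% to 5.17%, again without overlap. With the well's mitochondrial share as a covariate, 1 member was called lower at 30 mM, and 73 members were negative with a median of -0.16. In that fit the median SE rose from 0.061 to 0.091, and the calls over all genes fell from 400 higher and 880 lower to 116 and 213.

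At 10 mM ethanol the family did not show the fall. The members took 4.59%, 4.89% and 5.14% of counts in the ethanol wells and 4.60%, 4.71% and 4.83% in the controls, with overlap, and the means were 4.87% ± 0.207 and 4.72% ± 0.0899 (SD, n = 6 each). By edgeR, 1 member, Rpl9, rose and 0 fell, with 7 members at an unadjusted p under 0.05. By the same test 1366 of all 13538 genes and 342 of 1951 other genes at 100 CPM or more had such a p. The 7 are therefore not read as particular to the members. Over all 13538 genes tested 0.391% were called higher and 0.266% lower, and among other genes at 100 CPM or more 1.44% and 0.461%. The value was positive for 65 members, for 6670 of all 13538 genes and for 1091 of the 1951 other genes at 100 CPM or more. The members' median was 0.05, beside -0.00 over all genes and 0.02 over those other genes. The members' values ranged from -0.10 for Rpl10 to 0.25 for Rpl23a. DESeq2 and limma voom also called 1 member.

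Rpl9, of the large subunit, measured 385, 410 and 483 CPM at 10 mM and 343, 354 and 371 CPM in the controls. It was the single member whose wells did not overlap, while 0.502% of all genes and 1.38% of other genes at 100 CPM or more separated upward (0.303% and 0.359% downward), and it rose by 0.22 (SE 0.057, adjusted p = 0.042). Its call ended without replicate 1 (adjusted p = 0.18) or 2 (0.095) of the 10 mM wells and without any 1 of the 6 controls (adjusted p from 0.052 to 0.10). Rpl27a, at 191, 209 and 224 CPM against 147, 181 and 200 CPM, overlapped and did not pass (0.24, SE 0.066, adjusted p = 0.077), and it passed without 10 mM replicate 3 (0.049) or control replicate 1 (0.040). Rpl13a (0.25, SE 0.079, adjusted p = 0.15) and Rpl23a (0.25, SE 0.107, adjusted p = 0.37) did not pass either.

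Other members overlapped their controls at 10 mM and did not pass. Rplp1 measured 1529, 1598 and 2097 CPM against 1458, 1616 and 1710 CPM, with a fold change of 0.08 (SE 0.056). Rps6 was at 0.05 (SE 0.090), Rps18 at 0.04 (SE 0.057) and Rpl12 at 0.02 (SE 0.055). The 10 mM wells differed among themselves. In replicates 1, 2 and 6 there were 49, 38 and 51 members above all 6 controls, and in replicates 3, 4 and 5 there were 4, 6 and 14. A control well of experiment 2 had on average 12.7 members, from 1 to 19, above the other controls. These counts were not made over other genes and are not read as particular to the members. Relative to the members' total, 0 members were called in either direction at 10 mM by edgeR (4 at an unadjusted p under 0.05) and 0 by limma voom. Over all 13538 genes 0.140% were then called higher and 0.391% lower by edgeR, and 1420 had an unadjusted p under 0.05.

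At 10 mM there were 0 calls among the 22 TOP and translation genes (median 0.03), the 35 ribosome biogenesis genes (0.01), the 28 other translation factors (0.01), the 21 genes that control TOP messages (-0.03) and the 23 cell cycle genes (-0.01). Of 13 mature oligodendrocyte markers 3 rose, Mag (0.36), Mal (0.38) and Cnp (0.25), and of 11 fibroblast and mural markers 2 fell, Dcn (-0.39) and Col3a1 (-0.38). Of 12 microglia markers 2 rose, Cx3cr1 (0.29, adjusted p = 0.036) and Fcrls (0.35, adjusted p = 0.042). Of 8 neuron markers Tubb3 rose (0.24, adjusted p = 0.026) and Stmn2 fell (-0.40, adjusted p = 0.029). Over all genes tested at 10 mM, 0.391% were called higher and 0.266% lower. The part of these list genes in the members' values at 10 mM was not tested. The mitochondrial share was 1.81% to 2.37% against 2.06% to 2.39%.

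The change at 30 mM differed from the change at 10 mM for many members. In the test of that difference over all 24 wells, 34 members were lower and 0 higher, against 2.40% and 0.880% of the 14655 genes tested and 8.10% lower and 2.36% higher among other genes at 100 CPM or more. The median difference was -0.28 on the log2 scale, and 75 members were negative. Over all 14655 genes the median was 0.02, with 6975 negative. Over the 1951 other genes at 100 CPM or more it was -0.09, with 1316 negative. The smallest p values belonged to Rps16 (-0.43, SE 0.092, adjusted p = 0.0024), Rpl3 (-0.39, SE 0.084, adjusted p = 0.0025), Rpl12 (-0.41, SE 0.089, adjusted p = 0.0028), Rpl4 (-0.37, SE 0.081, adjusted p = 0.0029) and Rps23 (-0.42, SE 0.095, adjusted p = 0.0043). By subunit, 22 of 42 large subunit genes, 12 of 31 small subunit genes and 0 of 3 P stalk genes passed. The number passing was 21 without 30 mM replicate 6, 22 without 10 mM replicate 1 and 55 without control replicate 6 of experiment 1. It was 0 with the mitochondrial share as a covariate, where the median was -0.22. In that fit the members' median SE rose from 0.087 to 0.114, and the calls over all genes fell from 129 higher and 352 lower to 16 and 70. Because each dose was 1 experiment, the difference tested here is between experiments as much as between doses.

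**Figure D4:**
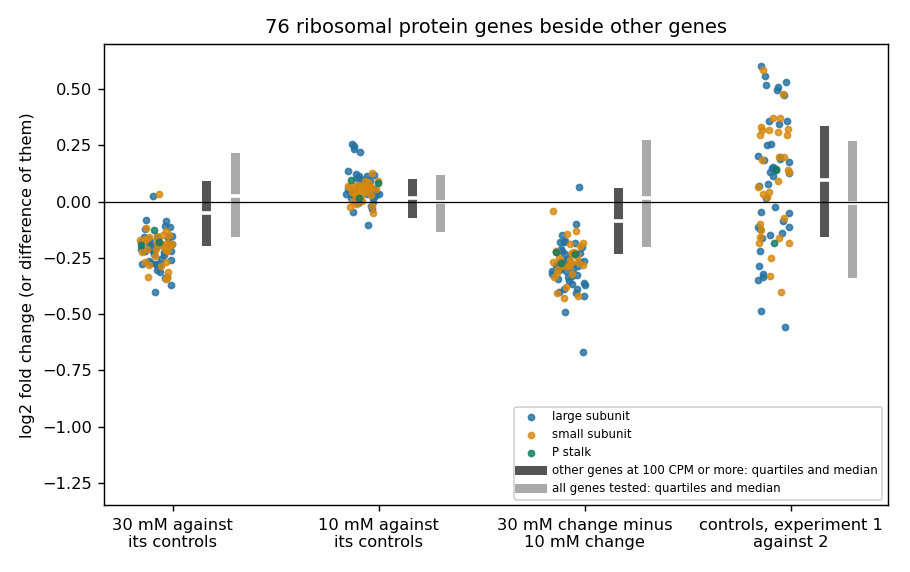
Log2 fold changes of the 76 members (points, coloured by subunit and spread sideways for legibility) in the comparisons named on the x axis, beside bars from the first to the third quartile with a white mark at the median for other genes at 100 CPM or more (dark) and all genes tested (light). The members' medians are -0.20 (30 mM), 0.05 (10 mM), -0.28 (difference) and 0.13 (controls), and between the controls the points spread from -0.56 to 0.60.

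The control wells of the experiments also differed. Members went in both directions: 36 were higher in experiment 1 and 18 lower, among 21.3% of all 13479 genes tested higher and 22.3% lower (42.4% and 22.6% of other genes at 100 CPM or more). Their values had a median of 0.13 and an SD of 0.27 against a median SE of 0.056, and ranged from -0.56 for Rpl5 to 0.60 for Rpl7. Wells separated fully for 21 members upward and 8 downward, against 10.6% and 8.27% of all genes and 28.9% and 12.4% of other genes at 100 CPM or more. These counts lie near the shares of other genes at that level and are not read as particular to the members. Relative to the members' own total, 25 were higher and 26 lower (16.7% and 26.5% of all genes).

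Rpl7 measured 510, 529 and 546 CPM in the controls of experiment 1 and 325, 342 and 365 CPM in those of experiment 2 (log2 fold change 0.60, SE 0.056, adjusted p = 9.4e-16). Rpl37 measured 1013, 1053 and 1099 CPM against 689, 711 and 725 CPM (0.56, SE 0.052), and Rps28 measured 556, 599 and 651 CPM against 377, 390 and 442 CPM (0.58, SE 0.057). Rpl18 (0.53) and Rpl30 (0.51) were also higher in experiment 1. In the other direction, Rpl5 measured 125, 139 and 151 CPM against 186, 200 and 222 CPM (-0.56, SE 0.068, adjusted p = 8.8e-11), Rpl28 measured 457, 538 and 640 CPM against 691, 752 and 823 CPM (-0.49, SE 0.060) and Rps27a measured 387, 438 and 504 CPM against 540, 569 and 621 CPM (-0.40, SE 0.057). Rpl19 (-0.35) and Rpl10a (-0.34) were also lower. None of these genes had overlapping control wells. Other lists differed between the controls too. In experiment 1, 12 of 12 tested microglia markers and 7 of 10 oligodendrocyte precursor markers were lower, with 0 higher. All 8 mitochondrial genes tested were higher. Of 12 astrocyte markers 8 were higher and 3 lower, and of 23 cell cycle genes 13 were higher and 1 lower. Experiment, batch and these differences cannot be told apart here, and their part was not tested.

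**Figure D5:**
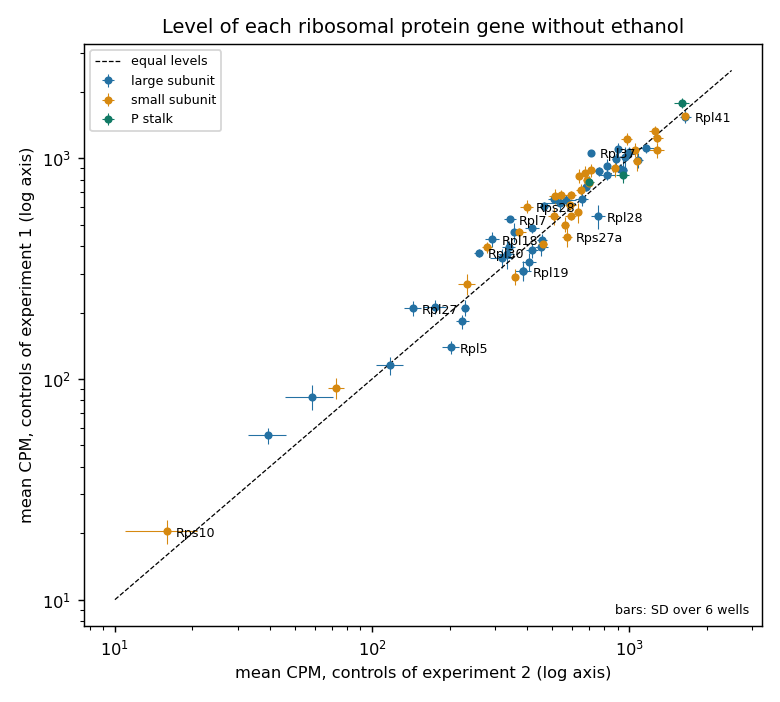
Mean CPM of each member in the control wells of experiment 1 (y axis) against experiment 2 (x axis), on log axes, with SD bars over 6 wells and a dashed line of equal levels. Rpl7, Rpl37 and Rps28 lie above the line and Rpl5, Rpl28 and Rps27a below it, and Rps10 is the lowest member in both experiments.

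Members differed widely in level, although most of their proteins are present in about equal numbers. Counts of 3′ tags do not scale with transcript length, so CPM were compared between genes as they stand. Averaged over the wells, Rplp1 was highest, followed by Rpl41, and Rpl23a, Rpl15 and Rps10 were lowest. In the controls of experiment 1, Rplp1 was at 1787 ± 88.8 CPM and Rpl41 at 1546 ± 105 CPM (SD, n = 6), and their wells overlapped. Rpl23a was at 83.0 ± 11, Rpl15 at 55.5 ± 4.70 and Rps10 at 20.4 ± 2.53 CPM, and the range of Rpl15 did not reach that of either neighbour. How reads shared with other copies were counted is not given in the sources used here, so low levels of genes with many pseudogenes are uncertain. Pseudogenes named after Rps10 held 46.3% of the counts of Rps10 and those pseudogenes together, and the shares were 13.8% for Rpl23a, 7.75% for Rpl13a and 7.02% for Rps6.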

How the data were processed

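RNA from 24 wells of cultured mouse oligodendrocytes was measured by 3′ tag sequencing. The authors deposited raw counts per gene, 1 column per well, with 55359 Ensembl mouse identifiers, of which 52083 (94.1%) matched a symbol. The submitters' processing notes name cutadapt 1.18, STAR and GRCm39. The counter, the annotation, the use of strand and the treatment of reads with several matches or of PCR duplicates are not given in the sources used here, so genes with near-identical copies are uncertain. Promoter sequences came from a RefSeq table for GRCm38.p6, and no coordinate was joined to the counts.

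Wells were grouped by the labels. Counts were tested with edgeR 4.0.16 in R 4.3.3 (quasi-likelihood) with TMM scaling, filterByExpr at a minimum count of 10, Benjamini-Hochberg adjustment over all genes tested and calls at an adjusted p under 0.05. A dose and the controls of its experiment were fitted together, the difference over all 24 wells, and the control groups with each other. A second scaling set the library size to the members' total. CPM used TMM factors over 24 wells. A count of 3, the floor, was 1.65 to 2.53 CPM. Intervals of shares are exact binomial at 95%. The test was checked on simulated data.

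The members and lists were chosen with earlier results of these data known. Named were a fixed list of 19 members, up to 5 per direction and comparison with the smallest p (3 where none passed), the 3 highest and 3 lowest by level, the 3 at each end of the fold changes per dose, and up to 3 called genes per other list and dose, beyond which Sesn2, Gfap and Mbp were chosen after their values were seen. Of the genes this rule gave, 3 are not reported here. Alternatives were other scalings, filters and thresholds, DESeq2 1.42.0, limma voom (limma 3.58.1), a joint fit, a replicate block, a total count covariate, added pseudogene counts, and each well left out. A mitochondrial share covariate was added after the data were seen.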

Additional observations from a re-analysis of the deposited data

Results flagged for a closer look

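Among 168 sets of 6 wells, 7 had an end well set apart from the rest by Dixon's criterion, where chance alone gives about 8.4 (1 in 20). In the experiment 1 controls these were Rpl39 in replicate 4 (657 CPM, highest, next 609), Rps10 in replicate 5 (15.6 CPM, lowest, next 20.5), Rps27 in replicate 6 (715 CPM, lowest, next 837) and Rps6 in replicate 5 (110 CPM, highest, next 90.8). At 30 mM they were Rpl32 in replicate 1 (673 CPM, lowest, next 770.5) and Rpl4 in replicate 2 (939 CPM, highest, next 863). At 10 mM it was Rpl19 in replicate 3 (355 CPM, lowest, next 395).

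For 17 of the 40 named members the log2 change at 30 mM differed from that at 10 mM by the test of the difference itself (edgeR, adjusted p under 0.05). Some of the 40 were named because of their p in this test or their fold changes, so 17 of 40 is not a share of the family. Of all 76 members 34 were lower, against 2.40% of all genes and 8.10% of other genes at 100 CPM or more. In order of p, the differences were -0.43 for Rps16, -0.39 for Rpl3, -0.41 for Rpl12, -0.37 for Rpl4, -0.42 for Rps23, -0.40 for Rpl14 and -0.36 for Rpl18. They were -0.67 for Rpl23a, -0.32 for Rpl38, -0.30 for Rpl37, -0.39 for Rpl9, -0.49 for Rpl13a, -0.32 for Rps18, -0.31 for Rpl32, -0.28 for Rpl11, -0.29 for Rpl7 and -0.33 for Rpl27a. The calls of Rpl7, Rpl11, Rpl13a, Rpl27a and Rps18 ended without at least 1 of the 24 wells, and the other 12 held with each left out in turn. Rpl13a, Rpl9 and Rpl27a did not pass at 30 mM alone. Dose and experiment cannot be told apart in any of these differences.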

How the results depend on the processing

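The direction of the members' median held in each of the 4 comparisons under every alternative run, from -0.23 to -0.16 at 30 mM and from 0.03 to 0.08 at 10 mM. The median over all genes moved by less than 0.1 between scalings. The cause of the shifts below was not tested, except that a stricter threshold calls fewer genes by construction.

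The number of members lower at 30 mM was 47, and it was 25 at an adjusted p under 0.01 and 1 with the mitochondrial share as a covariate. It ranged from 30 to 53 with 1 well left out. DESeq2 called 47. Relative to the members' total, limma voom called 2 lower at 30 mM and leaving out a well gave 0 to 3. The number higher at 10 mM was 1, and it was 0 at an adjusted p under 0.01, in the joint fit of 24 wells, with the replicate block and with the mitochondrial covariate, and 2 at an adjusted p under 0.1, with 0 to 2 when a well was left out. The number lower in the difference between doses was 34, and it was 19 with upper quartile scaling, 12 at an adjusted p under 0.01, 20 with the log2 total count as a covariate and 0 with the mitochondrial covariate, with 21 to 55 when a well was left out and 49 by DESeq2. The median difference was -0.20 with upper quartile scaling. Between the controls, the number higher was 6 with the mitochondrial covariate, and the number lower was 10 with no count filter and 0 with that covariate. In that fit the calls over all genes fell from 2873 higher and 3007 lower to 301 and 269, and the members' median SE rose from 0.056 to 0.157. The median between the controls was 0.065 with upper quartile scaling, 0.071 with total counts only, 0.18 with no filter, 0.065 at a minimum count of 30 and 0.18 with the mitochondrial covariate. Outside mitochondrial genes, the mean share was 4.95% in the experiment 1 controls, 4.32% at 30 mM and 4.82% in the experiment 2 controls.

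Some values changed sign, none of them called. Rpl13a at 30 mM moved from -0.23 to 0.064 with the mitochondrial covariate, and Rps13 at 10 mM was 0.0016 with it. Rpl15 at 30 mM was -0.0043 with no filter and between -0.045 and 0.072 with a well left out, and at 10 mM between -0.10 and 0.032. Rps10 at 30 mM was -0.014 with the total count covariate and between -0.039 and 0.12 with a well left out.

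The labels give each group replicate numbers 1 to 6. Correlations of same-numbered wells ran from -0.166 to 0.222 in experiment 1 and from -0.035 to 0.033 in experiment 2, and 2 of 12 and 1 of 12 wells correlated best with their own number, so the numbers were not taken as pairs. With the replicate block, 48 members were lower at 30 mM (46 of them also called without it), 0 changed at 10 mM, 34 were lower in the difference (33 of them also called without it) and 60 differed between the controls (54 of them also called without it).

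Depth limits the lowest members: Rps10 averaged 25.9 counts a well, and its SE at 30 mM was 0.173 against a median of 0.061.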

Other observations

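Members with a pyrimidine run exactly at the annotated start and members without one there had like values. At 30 mM the median log2 fold change was -0.19 for the 13 members with such a start and -0.20 for the other 43 with a promoter entry, and at 10 mM the medians were 0.04 and 0.05. This split depends on the exact annotated base, and 31 of the 56 members had a pyrimidine run within 30 bases of the start. It therefore cannot separate messages with a TOP motif from those without one.

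Across the 76 members the fold change at 30 mM was only weakly related to annotated transcript length (Spearman 0.08), its GC content (-0.10) or mean level (0.08). These are descriptions across genes that share the same wells. Length and GC content were those of the longest protein-coding transcript annotated for each gene, from 383 bases to 5179 bases for Rps15a. That transcript may not be the one measured, so the values do not describe the expressed messages.

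Ribosomal protein pseudogenes took few counts. Of 300 with a name in -ps, 250 had at least 1 count, and together they held 0.0492% of all counts. Relative to the members' counts their share was 0.93% to 1.60% in the 30 mM wells and 0.81% to 1.2% in the controls of experiment 1. These ranges overlapped, but the median was higher at 30 mM, at 1.43% against 0.91%. Adding the pseudogene counts to their parent genes left 38 members lower at 30 mM, all 38 also called without them.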
